A study of Mus musculus with 6 samples.

Results

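The genes described here encode the catalytic and regulatory subunits of the protein phosphatases PP1, PP2A, PP4, PP5 and PP6, measured in the soleus muscle of mice. They were chosen by name alone, as all symbols that begin with Ppp1, Ppp2, Ppp4, Ppp5 or Ppp6 followed by c (catalytic) or r (regulatory), leaving out Ppp1r3a and Ppp1r3c. The rule gave 72 of the 19938 genes with a single symbol on the array, of which 44 belong to PP1, 15 to PP2A and 13 to PP4, PP5 and PP6. Among the 72, 8 encode catalytic subunits and 4 carry pseudogene symbols.

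The study profiled soleus from male C57BL/6 mice aged 8 weeks on Affymetrix Mouse Gene 1.0 ST arrays, which read total RNA with many short probes across each transcript. There were 3 groups of 2 arrays: an untreated control, hindlimb suspension, in which the hind limbs bear no weight, and hindlimb suspension combined with electroacupuncture, which passes current through acupuncture needles. The comparison of the first 2 groups asks what unloading did, and the comparison of the last 2 what electroacupuncture did to unloaded muscle. The labels give neither the length of suspension nor the needle sites or current, and do not tie arrays to animals, so duplicates may come from 1 mouse or several, and the p-values measure only the spread between these arrays, which may be technical. No group received electroacupuncture without suspension.

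Reversible phosphorylation of serine and threonine is undone in most cells chiefly by PP1 and PP2A. Their catalytic subunits are few and broadly active, and their specificity comes from the regulatory subunits: PP1 binds one of many targeting proteins or inhibitors, and PP2A assembles a scaffold (A) and a variable (B) subunit around its catalytic subunit. In skeletal muscle PP1 is known for dephosphorylating glycogen synthase, glycogen phosphorylase and myosin light chain, and PP2A for acting on kinases of the growth and metabolic pathways.

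Values are log2 signals, so a difference of 1 is a 2-fold difference, and each difference is given with its standard error (SE). The signals of different genes come from different probes and are not compared with each other. Background was set at 3.495, the 95th percentile of the mean signals of 1027 olfactory receptor genes, and 64 of the 72 members had a mean above it. The 8 that were not above background were Ppp1r17, Ppp1r1c, Ppp1r2-ps7, Ppp1r36, Ppp1r42, Ppp2r2c, Ppp4r3c-ps and Ppp4r4.

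The 6 arrays had gene medians between 4.55 and 4.61 and mean rank correlations with the other arrays from 0.982 for control array 1 to 0.988 for electroacupuncture array 2. Control array 1 was the lowest or the highest of the 6 arrays for 51.4% of the members and 45.9% of all genes. Slow-fibre markers (8 of 8 above background) had a mean log2 signal of 10.99 and 11.32 on the control arrays, 10.48 and 10.52 after suspension, and 10.34 and 10.74 with electroacupuncture. Fast-fibre markers (9 of 9 above background) had 11.39 and 11.20, then 12.04 and 12.09, then 11.96 and 12.004. Both fibre programmes of the soleus were therefore present on every array. In both suspended groups the mean of the slow list was lower, and that of the fast list higher, than in the control. After suspension 6 of 8 slow markers were lower without overlap and 1 higher, where 18.5% and 21.3% of all genes were. Of the 9 fast markers 7 were higher and 0 lower. Myh7 (-0.14) and Atp2a2 (0.10) of the slow list, and Casq1 (0.02) and Tnnt3 (0.04) of the fast list, differed little. In whole muscle, fewer cells of a type and less RNA per cell cannot be told apart, and the part of this fibre shift in the results that follow was not tested.

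1 member passed the test across all genes. Ppp1r27, an ankyrin-repeat PP1-binding protein that also binds dysferlin, had log2 signals of 9.85 and 10.91 in the control, 9.14 and 9.41 after suspension, and 7.94 and 8.37 with electroacupuncture. The groups did not overlap: both suspension arrays lay below both control arrays, and both electroacupuncture arrays below both suspension arrays. The group means were 10.38 ± 0.75, 9.28 ± 0.19 and 8.15 ± 0.31 (SD, n = 2). Between the electroacupuncture group and the control Ppp1r27 fell by 2.23 ± 0.30 (SE) on the log2 scale, 4.69-fold, with an adjusted p of 0.0150 (limma, Benjamini-Hochberg over all genes).

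The smaller steps of Ppp1r27 did not pass the test. Its difference was -1.11 ± 0.30 for suspension minus control (limma adjusted p = 0.148) and -1.12 ± 0.30 for electroacupuncture minus suspension (adjusted p = 1.00), and these comparisons share the suspension arrays. The control arrays of Ppp1r27 lay far apart. A fit that leaves out an array keeps 1 array in that group, which is assumed to vary as the other groups do. The suspension difference was -1.64 (adjusted p = 0.0170) without control array 1 and -0.58 without control array 2, and over all alternatives its adjusted p ran from 0.0170 to 0.470. The electroacupuncture minus control call was lost without electroacupuncture array 1, where the difference was -2.02, and without array 2, where it was -2.45. In these fits, which keep 1 electroacupuncture array, calls over all genes also fell steeply. The call was lost too when every transcript cluster was tested by itself (limma adjusted p = 0.142), where 1 of all clusters was called. Over all alternatives run its adjusted p ran from 0.00397 to 0.160, and the difference itself stayed between -2.76 and -1.70. Ppp1r27 was the single member past a 2-fold difference in each of the 3 comparisons.

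**Figure D1:**
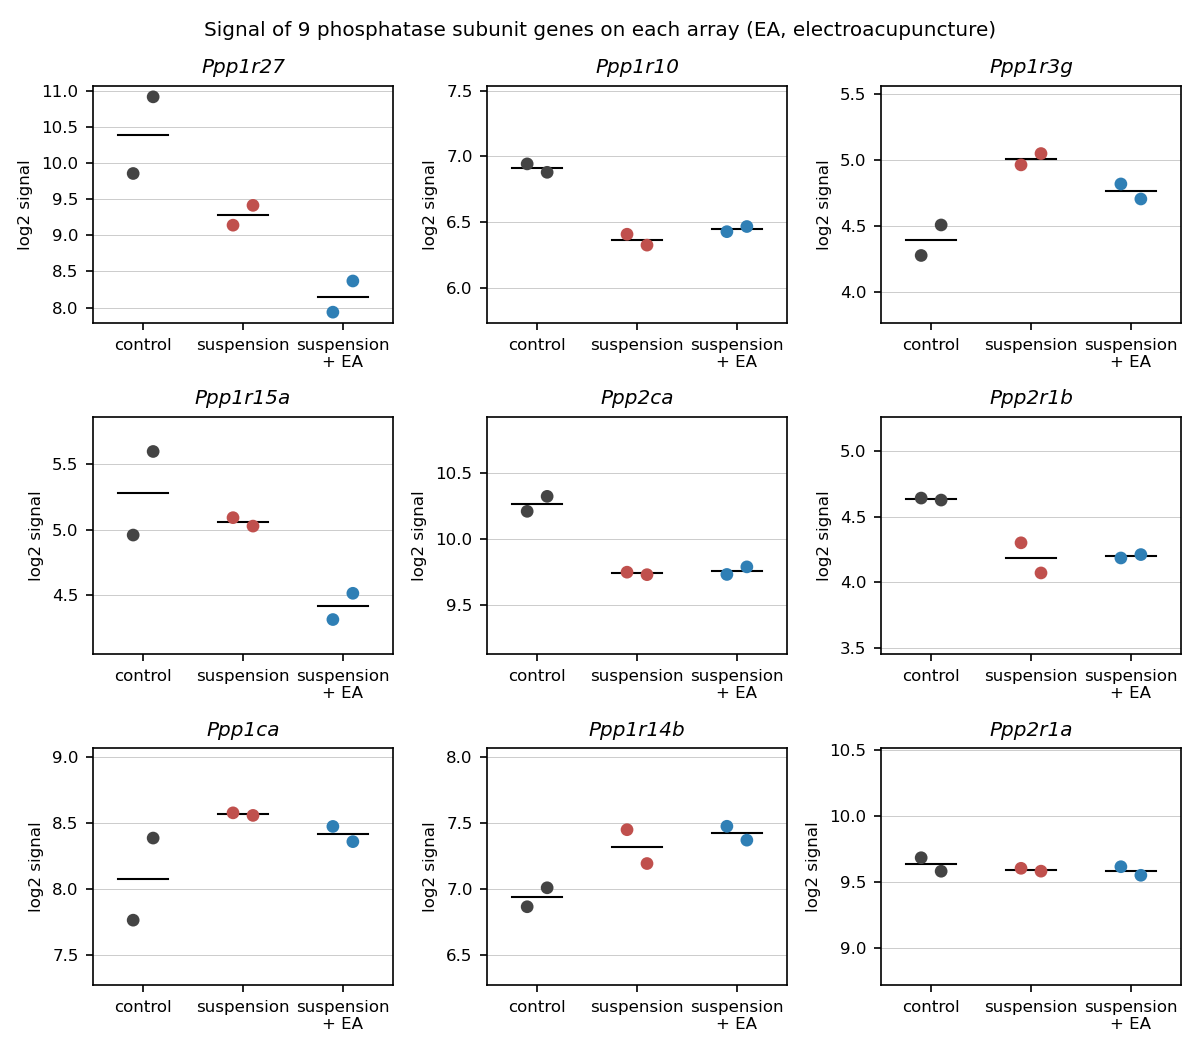
Log2 signal (vertical axis, separate scale in each panel) of 9 phosphatase subunit genes on every array, by group (horizontal axis; EA, electroacupuncture); points are arrays and horizontal lines are group means. Ppp1r27 stepped down from 10.38 in the control to 9.28 and 8.15, Ppp2ca and Ppp1r10 were lower in both suspended groups than in the control, and Ppp2r1a lay between 9.55 and 9.69 throughout.

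Ppp2ca, which encodes the main PP2A catalytic subunit, had the smallest p of any member for suspension minus control. Its log2 signals were 10.21 and 10.32 in the control, 9.75 and 9.73 after suspension, and 9.73 and 9.79 with electroacupuncture. Every array of the suspended groups lay below both control arrays, and those of the suspended groups overlapped each other. The difference was -0.53 ± 0.12 for suspension minus control (limma adjusted p = 0.0931) and -0.51 ± 0.12 for electroacupuncture minus control (adjusted p = 0.109). It passed the threshold for suspension minus control after cyclic loess normalization (adjusted p = 0.0495), and over all alternatives the adjusted p ran up to 0.379.

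Promoters are shown for leading members by p for suspension minus control that had a single promoter window ending at the gene's start. They are those of Ppp1r27, the 1 member that passed the test, and Ppp2ca, the member with the smallest p after suspension. Each is the 250 bases before the gene's annotated start in RefSeq (GRCm38.p6), chr11:120551133-120551382 on the minus strand for Ppp1r27 and chr11:52098574-52098823 on the plus strand for Ppp2ca, with capitals marking motif matches on either strand.
Ppp1r27: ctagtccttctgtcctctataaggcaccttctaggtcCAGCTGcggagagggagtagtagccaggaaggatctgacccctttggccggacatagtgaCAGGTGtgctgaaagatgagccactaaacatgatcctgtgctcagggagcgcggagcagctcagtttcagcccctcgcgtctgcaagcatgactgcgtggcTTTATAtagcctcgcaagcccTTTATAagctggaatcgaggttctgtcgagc
Ppp2ca: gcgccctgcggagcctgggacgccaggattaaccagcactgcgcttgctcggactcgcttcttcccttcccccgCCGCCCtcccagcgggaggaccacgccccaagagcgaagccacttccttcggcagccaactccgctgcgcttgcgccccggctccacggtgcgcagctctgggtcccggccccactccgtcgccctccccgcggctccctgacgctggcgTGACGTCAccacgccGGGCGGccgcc
In the Ppp1r27 window the capitals mark 2 E-boxes (CANNTG, the core bound by myogenic and other helix-loop-helix factors), 213 to 208 and 153 to 148 bases before the start, and 2 TATA box matches (TATAAA, read on the other strand), 52 to 47 and 31 to 26 bases before it. In the Ppp2ca window they mark 2 GC boxes (GGGCGG), 176 to 171 and 11 to 6 bases before the start, and a cyclic AMP response element (TGACGTCA) 26 to 19 bases before it. The Ppp2ca window holds 30 CG pairs and the Ppp1r27 window 10, against a median of 6 over 32851 RefSeq promoter windows of this length. These matches describe the letters only.

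Windows were matched for 54 members, some with several starts, giving 67 in all. A GC box stood in 64.2% of the members' windows and 32.7% of all windows, a cyclic AMP response element in 7.46% and 1.55%, an E-box in 47.8% and 66.2%, and a TATA box in 7.46% and 12.4%. The MEF2 site and the CArG box, both searched by name on both strands and known from muscle genes, were in 0% of the members' windows and in 2.92% and 1.47% of all windows. The members' windows held a median of 18 CG pairs.

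For suspension minus control, 0 of the 72 members passed an adjusted p of 0.05 in limma, where 1.05% of all genes did (209 of 19938). At an unadjusted p of 0.05 there were 12 members (16.7%), 8 higher and 4 lower. Of all genes 12.7% passed, 1322 higher and 1215 lower. Both suspension arrays lay above both control arrays for 17 members (23.6%), against 21.3% of all genes, and below them for 13 (18.1%), against 18.5%. These shares are near those of all genes. The members' differences ran from -1.11 to 0.63 with a median of 0.04, and the median over all genes was 0.01.

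The PP1 genes had a median suspension minus control difference of 0.04, with 27 of 44 above 0. Those of PP2A had -0.04, with 6 of 15 above 0, and those of PP4, PP5 and PP6 0.11, with 9 of 13 above 0. No test was made of these medians, and 10196 of all 19938 genes were above 0. PP1 and PP2A were not separated by these medians: without suspension array 2 the PP1 median was -0.01 and the PP2A median 0.03.

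**Figure D2:**
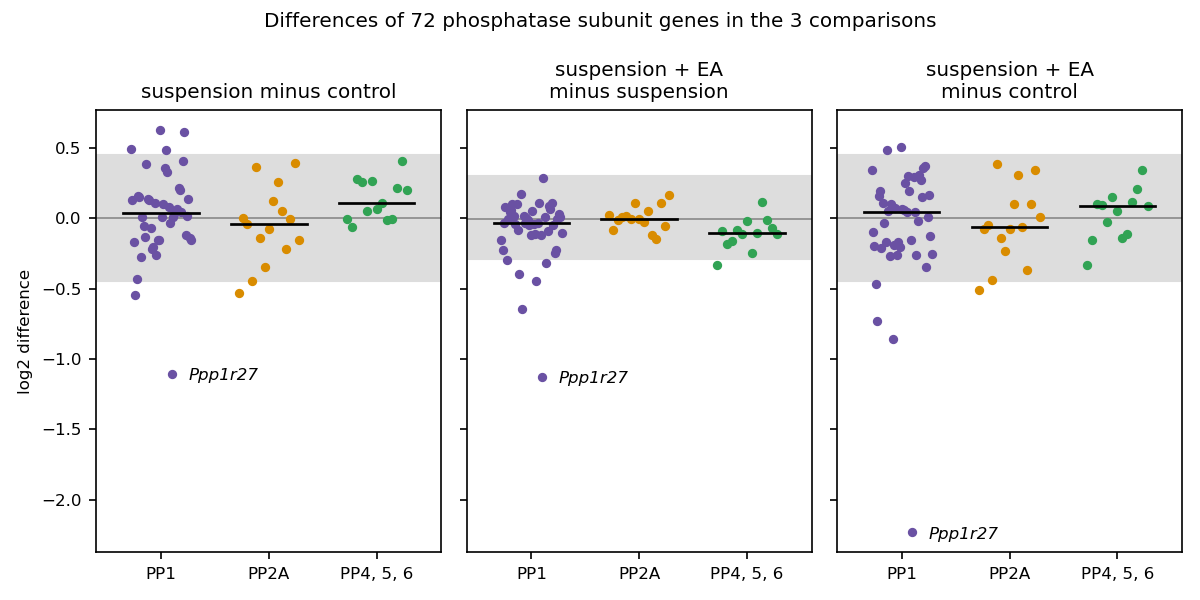
Log2 difference (vertical axis) of the 72 members in the 3 comparisons (panels), by phosphatase class (horizontal axis); each point is a gene, black lines are class medians and the grey band spans the 5th to 95th percentile of all genes. Class medians stay between -0.10 and 0.11, and Ppp1r27 lies at -1.11, -1.12 and -2.23.

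The PP1 catalytic genes did not pass the test in any comparison. Ppp1ca, the alpha isoform, had log2 signals of 7.76 and 8.38 in the control, 8.58 and 8.56 after suspension, and 8.47 and 8.36 with electroacupuncture. Control array 1 was the lowest of the 6 by a wide margin, and the suspension arrays lay above both controls. The suspension difference was 0.49 ± 0.19 (limma adjusted p = 0.325). It was 0.18 without control array 1, and with control array 1 as the only control it was 0.81 and passed the test, again with the spread taken from the other groups (limma adjusted p = 0.0339, against up to 0.617 under other alternatives).

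Ppp1cb, the beta isoform found in myosin phosphatase, had log2 signals of 9.87 and 9.50, then 9.67 and 9.96, then 9.71 and 9.47, so that all groups overlapped. Ppp1cc, the gamma isoform, had 9.13 and 8.96 in the control and between 8.82 and 8.90 in the suspended groups. Both suspended groups therefore lay below the control for Ppp1cc, by -0.17 ± 0.13 after suspension and -0.20 ± 0.13 with electroacupuncture, and a second cluster for the gene gave -0.15 and -0.20. The signals of both clusters lay close together on every array. They may read shared sequence, so the second is not separate evidence. Neither difference of Ppp1cc passed the test (limma adjusted p = 0.666 and 0.601).

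Of the inhibitor genes described next (Ppp1r1a, Ppp1r2, Ppp1r11 and the Ppp1r14 genes), none passed the test, and their differences lay on both sides of 0. Ppp1r1a, inhibitor-1, which blocks PP1 once protein kinase A has phosphorylated it, had 7.48 and 7.70 in the control, 8.59 and 7.85 after suspension, and 7.81 and 8.38 with electroacupuncture. Both suspended groups lay above the control, but 1 array of each stood well above the other. The suspension difference of Ppp1r1a was 0.63 ± 0.26 (limma adjusted p = 0.357), the largest positive value among the members, and 0.25 to 1.00 when single arrays were left out.

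Ppp1r2, inhibitor-2, which also helps new PP1 to fold, had 6.45 and 6.75 in the control, 6.997 and 6.92 after suspension, and 6.92 and 6.78 with electroacupuncture. The suspension arrays lay above all others, by 0.36 ± 0.15 over the control (limma adjusted p = 0.354), which was 0.21 without control array 1, and with 0.11 between them and the electroacupuncture mean. Ppp1r11, inhibitor-3, went the other way, with 5.48 and 6.03 in the control, 5.67 and 4.98 after suspension, and 4.88 and 5.18 with electroacupuncture. The electroacupuncture arrays of Ppp1r11 lay below both controls, by -0.73 ± 0.26 (limma adjusted p = 0.275), and its suspension arrays stood far apart.

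The Ppp1r14 genes encode small inhibitors that act on myosin phosphatase once phosphorylated. Ppp1r14b had 6.87 and 7.01 in the control, 7.45 and 7.19 after suspension, and 7.48 and 7.37 with electroacupuncture. All 4 arrays of suspended mice were above both controls, by 0.38 ± 0.14 after suspension (limma adjusted p = 0.296) and 0.49 ± 0.14 with electroacupuncture (adjusted p = 0.179), and a second cluster gave 0.38 and 0.50. Both clusters are annotated to Ppp1r14b alone, but the cluster used may read a copy of the gene, so which locus its signal comes from is uncertain. Ppp1r14c had 6.43 and 6.38, then 6.60 and 6.47, then 5.90 and 6.38. Its electroacupuncture arrays lay below both suspension arrays, by -0.40 ± 0.17 (limma adjusted p = 1.00), mostly on electroacupuncture array 1. Ppp1r14a, best known from smooth muscle, differed by -0.13 ± 0.16 after suspension with overlapping arrays. The smooth muscle markers (6 of 6 above background) had mean signals between 5.85 and 6.15 on all arrays, but did not share a direction. Their median suspension difference was -0.21, with 3 lower and 1 higher without overlap, where 18.5% and 21.3% of all genes were. The part of smooth muscle in the result was not tested.

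The glycogen-targeting subunits bring PP1 to glycogen particles, where it activates glycogen synthase. The 5 in the set, Ppp1r3b, Ppp1r3d, Ppp1r3e, Ppp1r3f and Ppp1r3g, all had suspension minus control differences above 0, from 0.05 to 0.62 with a median of 0.22. For electroacupuncture minus control, which uses the same 2 control arrays, the values ran from 0.16 to 0.37 with a median of 0.31, and the median over all genes was 0.01 in each. None passed the test, and without control array 2 Ppp1r3e lay below 0 in each comparison (-0.26 and -0.15).

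Ppp1r3g had the clearest separation among them, with 4.28 and 4.51 in the control, 4.97 and 5.05 after suspension, and 4.82 and 4.71 with electroacupuncture. The 3 groups did not overlap, with the electroacupuncture arrays between the others. The difference was 0.62 ± 0.16 after suspension (limma adjusted p = 0.119), and with electroacupuncture it was -0.24 ± 0.16 against suspension (adjusted p = 1.00) and 0.37 ± 0.16 against control (adjusted p = 0.366). Ppp1r3f had 4.50 and 4.44 in the control, 4.90 and 4.85 after suspension, and 4.77 and 4.88 with electroacupuncture, so both suspended groups lay above the control, by 0.41 ± 0.15 (limma adjusted p = 0.277) and 0.36 ± 0.15 (adjusted p = 0.346). Ppp1r3b, the form known from liver, was above background on 3 of the 6 arrays.

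The main muscle glycogen subunits were left out by the rule. Ppp1r3c fell by 1.31 ± 0.19 after suspension (limma adjusted p = 0.0189) and by 1.79 ± 0.19 with electroacupuncture against control (adjusted p = 0.00784), while Ppp1r3a differed by 0.82 ± 0.22 (adjusted p = 0.140) and 0.92 ± 0.22 (adjusted p = 0.105).

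The myosin phosphatase targeting subunits Ppp1r12a, Ppp1r12b and Ppp1r12c, which hold PP1 beta on myosin, showed small differences. Ppp1r12b, the striated-muscle form, had 9.65 and 9.90 in the control, 9.92 and 9.93 after suspension, and 10.01 and 9.93 with electroacupuncture, with a suspension difference of 0.15 ± 0.13 (limma adjusted p = 0.726). The array carries 7 clusters for Ppp1r12b and they disagreed in sign, from -0.26 to 0.15, so no direction can be given. Ppp1r12c had 6.33 and 6.24 in the control, 6.11 and 5.90 after suspension, and 6.07 and 6.07 with electroacupuncture, below the control on all 4 arrays of suspended mice (-0.28 ± 0.14, limma adjusted p = 0.467). Ppp1r12a differed by 0.16 ± 0.16 after suspension and 0.16 ± 0.16 with electroacupuncture.

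Among the other genes of myosin light chain phosphorylation, 9 of 10 were measured. Only 1 of them, Mylk2, passed the test after suspension and with electroacupuncture against control, where 1.05% and 1.03% of all genes passed. Mylk2, the skeletal muscle myosin light chain kinase that opposes this phosphatase, had 8.78 and 8.54 in the control, 10.20 and 10.35 after suspension, and 9.98 and 9.74 with electroacupuncture. It rose by 1.61 ± 0.15 after suspension (limma adjusted p = 0.00496) and by 1.199 ± 0.15 with electroacupuncture against control (adjusted p = 0.0111). Mylk2 is known to be higher in fast fibres, whose markers had a higher mean on the same arrays, and the part of the fibre shift was not tested.

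Ppp1r10 (PNUTS), which targets PP1 to chromatin and the transcription machinery, had 6.94 and 6.88 in the control, 6.41 and 6.33 after suspension, and 6.43 and 6.47 with electroacupuncture. All 4 arrays of suspended mice lay below both controls, and duplicates lay close together. The differences were -0.54 ± 0.13 after suspension (limma adjusted p = 0.0960) and -0.46 ± 0.13 with electroacupuncture (adjusted p = 0.156). Its known partners did not share a direction: Wdr82 differed by -0.46 ± 0.16 after suspension (limma adjusted p = 0.268) and Tox4 by 0.39 ± 0.17 (adjusted p = 0.396).

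Ppp1r15a (GADD34), the stress-induced subunit that brings PP1 to the translation factor eIF2 alpha, had 4.96 and 5.59 in the control, 5.09 and 5.03 after suspension, and 4.32 and 4.52 with electroacupuncture. The electroacupuncture arrays lay below all 4 others. The difference of Ppp1r15a was -0.64 ± 0.21 against suspension (limma adjusted p = 1.00) and -0.86 ± 0.21 against control (adjusted p = 0.115). With control array 2 as the only control, and the spread taken from the other groups, the latter was -1.18 and passed the test (limma adjusted p = 0.0357, against up to 0.597 under other alternatives). After suspension alone the difference was -0.22 ± 0.21, and it was 0.10 without control array 2.

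Ppp1r15b (CReP), the constitutive eIF2 alpha subunit, differed by -0.20 ± 0.15 after suspension (limma adjusted p = 0.644), and a second cluster gave 0.26, so its direction was not settled. The 12 eIF2 alpha kinases and ATF4 targets were all measured, with Eif2ak2 not above background, and their median suspension difference was -0.23. Without overlap, 5 were lower, Eif2ak2 among them, and 3 were higher, where 18.5% and 21.3% of all genes were. Among those lower, Atf3, a stress-induced transcription factor, had -1.22 ± 0.33 (limma adjusted p = 0.148) and Asns, the asparagine synthetase, -0.70 ± 0.26 (adjusted p = 0.288). The 1 gene of the list that passed the test was Chac1, a glutathione-degrading enzyme induced by ATF4, which rose by 2.27 ± 0.42 after suspension (limma adjusted p = 0.0471). None of the 12 passed the test for electroacupuncture minus suspension or electroacupuncture minus control, where Chac1 had 1.95 ± 0.42 (adjusted p = 0.0778).

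The remaining PP1 members named for small p-values were Ppp1r16b and Ppp1r32. Ppp1r16b (TIMAP), an endothelial relative of the myosin phosphatase subunits, had 5.14 and 5.11 in the control, 4.84 and 4.88 after suspension, and 5.04 and 4.68 with electroacupuncture. It was lower than the control on all 4 arrays of suspended mice (-0.26 ± 0.16 after suspension, limma adjusted p = 0.578), beside endothelial markers (6 of 6 above background) at 7.40 and 7.59, then 7.51 and 7.38, then 7.10 and 7.03, whose part in the result was not tested. Ppp1r32 had a difference of 0.29 ± 0.18 for electroacupuncture minus suspension (adjusted p = 1.00), the highest of the members in that comparison, and was above background on 5 of the 6 arrays.

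**Figure D3:**
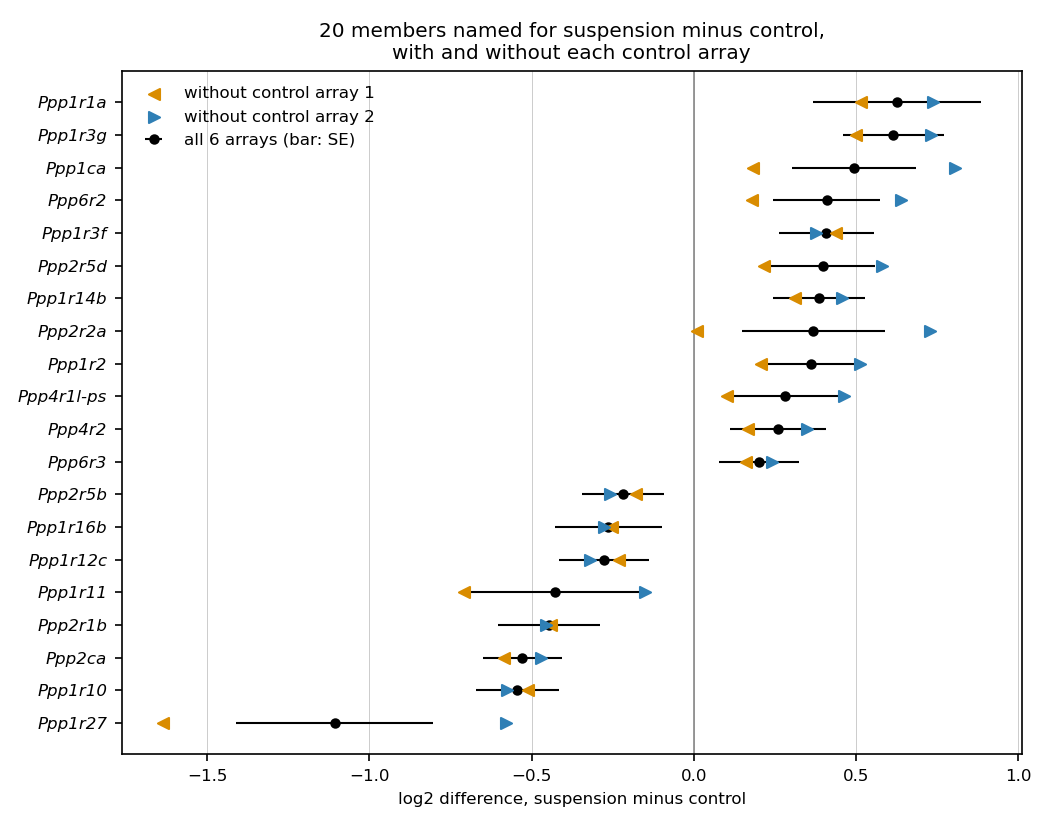
Log2 difference for suspension minus control (horizontal axis) of 20 named members (vertical axis); black points with SE bars use all 6 arrays, triangles leave out control array 1 or 2. All 20 keep their side of 0, and Ppp1r27 runs from -1.64 to -0.58 and Ppp2r2a from 0.01 to 0.73.

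PP2A genes other than Ppp2ca also separated from the control in single cases. Ppp2r1b, the less abundant scaffold isoform, had 4.64 and 4.63 in the control, 4.30 and 4.07 after suspension, and 4.19 and 4.21 with electroacupuncture. All 4 arrays of suspended mice lay below both controls, by -0.45 ± 0.16 (limma adjusted p = 0.264) and -0.43 ± 0.16 (adjusted p = 0.280). Ppp2r1a, the main scaffold, had 9.69 and 9.58, then 9.60 and 9.58, then 9.62 and 9.55. Its differences from the control were -0.04 ± 0.12 and -0.05 ± 0.12, with all groups overlapping.

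Ppp2cb, the second catalytic isoform, had 7.90 and 7.85 in the control, 8.00 and 7.77 after suspension, and 7.83 and 7.77 with electroacupuncture. Its suspension difference was 0.01 ± 0.13 with overlapping arrays (limma adjusted p = 0.994), while that of Ppp2ca was -0.53. Whether the isoforms differ in response was not tested.

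The B55 subunits, which carry PP2A to mitotic and signalling substrates, gave no common direction. Ppp2r2a had 5.54 and 6.25 in the control, 6.37 and 6.16 after suspension, and 6.33 and 6.24 with electroacupuncture, and the suspension difference of 0.37 ± 0.22 was 0.01 without control array 1. Ppp2r2d differed by -0.07 ± 0.14 in both comparisons with the control. Ppp2r2b differed by -0.14 ± 0.17 after suspension, and Ppp2r2c was not above background. Of the third regulatory class (B''), Ppp2r3a had 0.12 ± 0.13 and Ppp2r3c 0.26 ± 0.22 after suspension, both with overlapping arrays, and Ppp2r3c had -0.08 without control array 1.

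The 5 B56 subunits, which direct PP2A to signalling proteins and the centromere, had a median suspension difference of -0.01. Ppp2r5d had 6.12 and 6.48 in the control, 6.82 and 6.58 after suspension, and 6.65 and 6.64 with electroacupuncture, above the control on all 4 arrays of suspended mice by 0.40 ± 0.16 (limma adjusted p = 0.353) and 0.34 ± 0.16 (adjusted p = 0.433). Without control array 1 these differences of Ppp2r5d were 0.22 and 0.16. Ppp2r5b had 6.99 and 6.91, then 6.78 and 6.68, then 6.56 and 6.61. It stepped down without overlap from group to group, as Ppp1r27 did, but by -0.22 ± 0.13 and then -0.15 ± 0.13, and its electroacupuncture minus control difference was -0.36 ± 0.13 (limma adjusted p = 0.267).

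Ppp2r5e had 6.00 and 6.17 in the control, 5.83 and 6.03 after suspension, and 6.08 and 6.13 with electroacupuncture, a difference of 0.17 ± 0.14 for electroacupuncture minus suspension (limma adjusted p = 1.00). Ppp2r5a differed by 0.05 ± 0.13 after suspension, and its 4 clusters ran from 0.05 to 0.24. Ppp2r5c differed by -0.01 ± 0.13, and 1 of its other clusters had -0.50 for electroacupuncture minus control where the cluster used had 0.10.

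Regulators of these phosphatases with other names were taken as a list of 24, of which 23 were measured and Cip2a was not above background. 0 of them passed the test in any comparison. Both suspension arrays lay below both controls for 11 of the 23 and above them for 5, where 18.5% and 21.3% of all genes did. The electroacupuncture arrays lay below the controls for 10 and above them for 4, where 20% and 21.8% of all genes did. Among them Arpp19, which inhibits PP2A with a B55 subunit once phosphorylated, differed by -0.58 ± 0.15 after suspension (limma adjusted p = 0.114), and its relative Ensa by -0.31 ± 0.13 (adjusted p = 0.364). Ppme1, the methylesterase that acts on the PP2A catalytic tail, had 6.63 and 6.80 in the control, 6.15 and 6.21 after suspension, and 6.12 and 6.34 with electroacupuncture. Its arrays from suspended mice all lay below the controls, with -0.54 ± 0.14 after suspension (limma adjusted p = 0.139).

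Of the PPM family, magnesium-dependent phosphatases of separate origin, all 18 were measured and 0 passed the test after suspension. For electroacupuncture minus control, Pdp1, the pyruvate dehydrogenase phosphatase, rose by 0.88 ± 0.16 (limma adjusted p = 0.0437), and Pptc7, a mitochondrial phosphatase, fell by 0.87 ± 0.14 (adjusted p = 0.0302). After suspension Pdp1 had 0.79 ± 0.16 (adjusted p = 0.0677) and Pptc7 -0.64 ± 0.14 (adjusted p = 0.0856).

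The PP4, PP5 and PP6 genes were mostly above 0 after suspension and below 0 for electroacupuncture minus suspension. In the latter 12 of 13 differences were negative, against 10281 of all 19938 genes. These comparisons share the suspension arrays. The electroacupuncture minus suspension median was -0.10, where the median over all genes was -0.01, and both electroacupuncture arrays lay below both suspension arrays for 6 of the 13 genes, where they did so for 17.1% of all genes. One of the 6, Ppp4r4, was not above background. Without electroacupuncture array 2 the median was -0.08 and 10 of 13 were negative.

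All 8 Ppp4 genes had an electroacupuncture minus suspension difference below 0, with a median of -0.14, and 0 of them reached an unadjusted p of 0.05. Of all 19938 genes, 10281 were below 0. The 8 include Ppp4r4 and Ppp4r3c-ps, which were not above background, and a second pseudogene symbol, Ppp4r1l-ps. Without electroacupuncture array 2 the median was -0.05 and 6 of 8 were below 0. Ppp4c, the catalytic subunit, which acts in DNA repair and at centrosomes, had 6.16 and 6.30 in the control, 6.30 and 6.17 after suspension, and 6.07 and 5.73 with electroacupuncture. The electroacupuncture arrays were the lowest, by -0.33 ± 0.16 against suspension (limma adjusted p = 1.00) and -0.33 ± 0.16 against control (adjusted p = 0.429). Ppp4r2, a regulatory subunit of PP4, had 5.53 and 5.72, then 5.99 and 5.78, then 5.77 and 5.68, with the suspension arrays above all others (0.26 ± 0.15 over the control, limma adjusted p = 0.535). Ppp4r1l-ps, a pseudogene symbol, had 0.28 ± 0.19 after suspension, and its signal was not separated here from that of the related Ppp4r1.

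Ppp5c, which carries its own tetratricopeptide repeats in place of a separate targeting subunit, had 7.52 and 7.80, then 7.60 and 7.70, then 7.53 and 7.56. Ppp6c, the PP6 catalytic subunit, had 7.74 and 7.85, then 7.67 and 7.92, then 7.90 and 7.92. Differences between groups for Ppp5c and Ppp6c ran from -0.11 to 0.12, within their SE of 0.14.

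Of the SAPS-domain subunits of PP6, Ppp6r1 and Ppp6r2 depended on control array 1. It was the lowest of the 6 arrays for 3 of the 4 Ppp6 genes and for 4530 of all 19938 genes. Ppp6r2 had 6.72 and 7.18 in the control, 7.40 and 7.32 after suspension, and 7.24 and 7.35 with electroacupuncture. All arrays of suspended mice were above both controls, by 0.41 ± 0.17 after suspension (limma adjusted p = 0.350), and this difference was 0.18 without control array 1. Ppp6r3 had 7.40 and 7.48, then 7.59 and 7.69, then 7.53 and 7.53, with 0.20 ± 0.12 after suspension (limma adjusted p = 0.572). Its difference was 0.16 without control array 1. Ppp6r1 had 0.22 ± 0.23 with overlapping arrays, and this was -0.19 without control array 1 and 0.63 without control array 2.

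For electroacupuncture minus suspension, 0 of the 72 members and 0% of all genes (0 of 19938) passed an adjusted p of 0.05 in limma. At an unadjusted p of 0.05 there were 3 members (4.17%), all lower, Ppp1r27, Ppp1r15a and Ppp1r14c. Of all genes 3.07% passed, 312 higher and 300 lower. Both electroacupuncture arrays lay above both suspension arrays for 8 members (11.1%), against 15.4% of all genes, and below them for 17 (23.6%), against 17.1%. In all, 46 members had a difference below 0 (10281 of all 19938 genes) and 26 above it (9656), with a median of -0.03. Without suspension array 1 there were 35 below and 37 above, with a median of 0.0011.

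The class medians in this comparison were -0.03 for PP1, -0.00049 for PP2A and -0.10 for PP4, PP5 and PP6. The PP2A genes were the most narrowly spread, from -0.15 to 0.17, where the 5th and 95th percentiles of all genes were -0.29 and 0.30. The PP1 median turned to 0.02 without suspension array 1.

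For electroacupuncture minus control, 1 of the 72 members (1.39%, Ppp1r27) passed an adjusted p of 0.05 in limma, where 1.03% of all genes did (206 of 19938). At an unadjusted p of 0.05 there were 10 members (13.9%), 3 higher and 7 lower. Of all genes 12.8% passed, 1289 higher and 1264 lower. Both electroacupuncture arrays lay above both control arrays for 15 members (20.8%), against 21.8% of all genes, and below them for 19 (26.4%), against 20% of all genes. Class medians were 0.04 for PP1, -0.06 for PP2A and 0.09 for PP4, PP5 and PP6. Of the 15 PP2A genes, the 3 at an unadjusted p of 0.05, Ppp2ca, Ppp2r1b and Ppp2r5b, were all lower.

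The other 30 members were not named by the rule for single genes. Their suspension minus control differences ran from -0.35 to 0.49, those for electroacupuncture minus suspension from -0.44 to 0.17 and those for electroacupuncture minus control from -0.34 to 0.31. The smallest limma adjusted p among them was 0.501, 1.00 and 0.623 in the 3 comparisons. They include Ppp1r7 (Sds22) and Ppp1r8 (NIPP1), conserved nuclear PP1 regulators, with suspension differences of 0.02 ± 0.16 and 0.14 ± 0.16, the neuronal and cytoskeletal subunits Ppp1r9a and Ppp1r9b with -0.14 ± 0.18 and -0.15 ± 0.17, and Ppp1r1b (DARPP-32) with 0.01 ± 0.16. Ppp1r14bl had the widest duplicates, with suspension arrays at 4.11 and 5.43. Several ends of the ranges above came from genes not above background: Ppp2r2c (-0.35) and Ppp1r2-ps7 (0.49) after suspension, Ppp1r2-ps7 (-0.44) for electroacupuncture minus suspension and Ppp1r42 (-0.34) for electroacupuncture minus control. The limma adjusted p of 0.501 and 0.623 were those of Ppp1r2-ps7 and Ppp1r42.

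**Figure D4:**
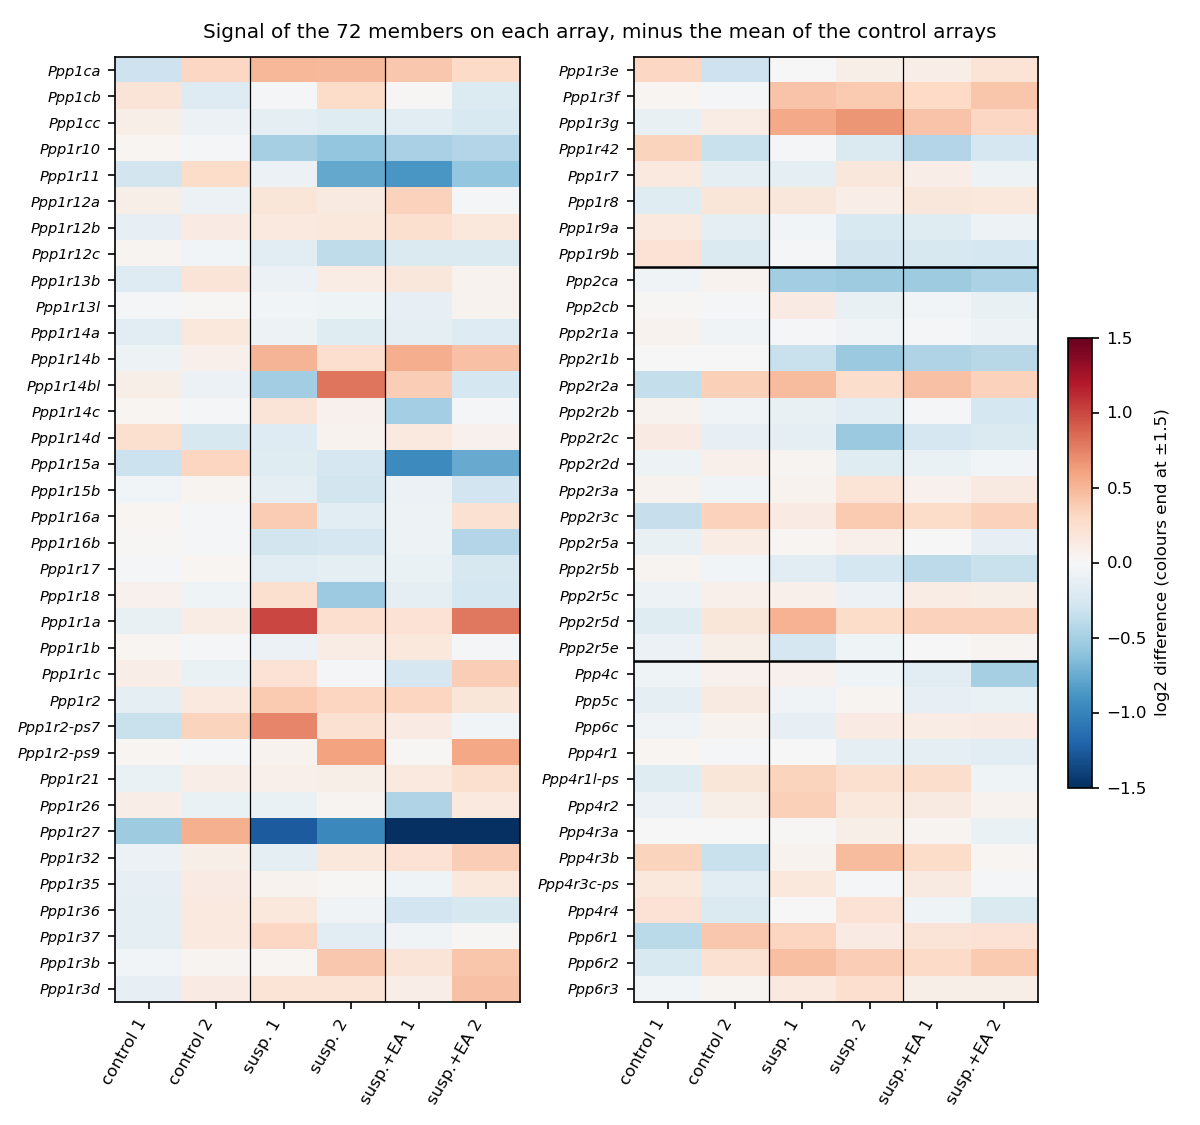
Log2 signal of each of the 72 members on each array minus the mean of the 2 control arrays (colour, ending at ±1.5). Rows are genes and columns are arrays (susp., suspension, and EA, electroacupuncture). The left panel holds PP1 genes only. In the right panel the other PP1 genes lie above the first black line, PP2A between the lines and PP4, PP5 and PP6 below. Ppp1r27 is the darkest row, Ppp2ca, Ppp1r10 and Ppp2r1b are blue on all 4 arrays of suspended mice, and the control columns of Ppp1ca, Ppp6r1 and Ppp2r2a differ from each other.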

How the data were processed

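The deposited values are log2 signals per transcript cluster, made by the authors with RMA in Affymetrix Expression Console per the submitters' processing notes, whose versions and genome build are not given in the sources used here. Of 35556 clusters, 21789 carried 1 gene symbol, 1621 several and 12146 none. Of the first, 21698 matched RefSeq by Entrez identifier. The cluster with the highest mean signal stood for each gene, which left 19938 genes, and 6 members had several clusters.

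Differences were tested with limma 3.58.1 in R 4.3.3 on all 6 arrays, with a variance prior that follows the mean signal and Benjamini-Hochberg adjustment over all genes at 0.05. The procedure was tested on simulated data. No scan date or batch was used here. With 2 arrays a group, 3 residual and 5.88 prior degrees of freedom set the precision. The members, gene lists and tests were chosen with earlier results of these data known. Genes were named if they passed the test, if they had the smallest p among members above background (up to 20 for suspension minus control and 8 for each other comparison), or if they belonged to a fixed set of 34, which gave 42 named members. Other genes were named because they stood in a listed pathway, or after their values were seen. Promoter motifs were chosen in place of a protein comparison, which was not analysed here.

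The alternatives were other variance priors, normalizations and treatments of clusters, a filter on low signal, the compared groups fitted alone, a replicate block, each array left out, and a threshold of 0.10.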

Additional observations from a re-analysis of the deposited data

How the results depend on the processing

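For suspension minus control, 0 members passed the test, where 209 of all 19938 genes did. After cyclic loess 1 member did (Ppp2ca), where 295 of all genes did. At a threshold of 0.10 the members were 2 (Ppp1r10 and Ppp2ca), where 482 of all genes passed. Ppp1r27 differed by -1.64 without control array 1 and Ppp1ca by 0.81 without control array 2, in fits that keep 1 control array. For electroacupuncture minus suspension the count was 0 under every alternative run. For electroacupuncture minus control there was 1 call, where 206 of all genes were called. It became 0 when every cluster was tested by itself, where 1 cluster of all was called. The call was also lost without either electroacupuncture array, where calls over all genes fell steeply too. Without control array 1, Ppp1r15a differed by -1.18. The causes were not tested.

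The PP1 median for suspension minus control was 0.0209 after a second quantile normalization, 0.0262 after cyclic loess and 0.0303 with clusters averaged, and -0.0057 to 0.0611 with single arrays left out. For electroacupuncture minus suspension it was -0.0152 after the second quantile normalization, -0.0180 after cyclic loess and -0.0514 to 0.0181 with arrays left out. For electroacupuncture minus control it was 0.0326 with arrays centred on their medians, 0.0271 with clusters averaged and -0.0259 to 0.0442 with arrays left out. The PP2A medians with arrays left out were -0.0917 to 0.0320, -0.0873 to 0.0355 and -0.0820 to 0.00572 in the same order.

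With the replicate number as a block the calls were 0, 0 and 1 in the same order. Whether the numbers pair the arrays was not settled. Same-numbered deviations correlated at -0.16 for control and suspension, 0.02 for control and electroacupuncture and -0.02 for suspension and electroacupuncture. With 2 arrays a group, opposite-numbered deviations give the same values with the opposite sign, so these correlations cannot exclude pairing. No difference of a named member reversed past the test. Of 72 members, 36, 30 and 43 kept 1 sign over all left-out arrays. With 2 arrays a group the median SE was 0.17, and differences such as 0.63 (Ppp1r1a) and -1.11 (Ppp1r27) after suspension did not pass the test.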

Other observations

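4 further transcript clusters name both Ppp1r2 and its pseudogene Ppp1r2-ps3 and entered no comparison between genes, because their signal cannot be given to 1 of them. Their suspension minus control differences ran from 0.06 to 0.30, on the same side of 0 as the 0.36 of the cluster used for Ppp1r2.

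Marker lists of other cell types differed between arrays. Adipocyte markers (6 of 6 above background) had mean log2 signals of 6.61 and 8.28 in the control, 6.90 and 6.71 after suspension, and 7.36 and 7.24 with electroacupuncture. Fibroblast and tendon markers (6 of 6) had 8.03 and 8.05, then 7.70 and 7.06, then 7.36 and 7.42, and macrophage markers (6 of 6) 5.06 and 5.28, then 5.60 and 4.998, then 5.79 and 5.53. Satellite cell markers (5 of 5) lay between 5.11 and 5.46, blood markers (3 of 5 measured) between 4.53 and 5.12, and nerve markers (4 of 6 measured, S100b not above background) between 5.52 and 5.61. Control array 2, where Ppp1r27 was highest, also had the highest adipocyte mean, and the part of these cell types in the members' values was not tested.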
